A study of Arabidopsis thaliana with 6 samples.

Results

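COR15A (AT2G42540), COR15B (AT2G42530) and COR28 (AT4G33980) are cold-regulated genes of Arabidopsis thaliana. They were taken by locus, each through the probe set that names it alone, and each had 1 such probe set. They are 3 of the 16405 genes named alone on these arrays. COR28 carries only its locus name, AT4G33980, in the annotation used here.

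Both groups were whole plants of the Columbia accession at 14 days, raised on MS medium at 23 °C under continuous light after 1 day at 4 °C following sowing. One group of 3 arrays was the wild type (WT), and the other group of 3 was ara6-1, a knock-out mutant of the plant-specific RAB5 GTPase ARA6, which acts in endosomal membrane traffic. No cold treatment of the grown plants is given in the labels, so the values below are levels at growth temperature in both genotypes. The series asked about starch and sugar homeostasis, and ara6-1 was the single mutant line measured.

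In plants that meet the cold, CBF transcription factors bind a short element in the promoters of COR genes and raise their transcription. COR15A and COR15B lie next to each other on chromosome 2 and encode closely related proteins of the late embryogenesis abundant (LEA) type, which enter the chloroplast stroma and help to stabilise membranes during freezing. COR28 and its relative COR27 encode small proteins that respond to cold and light and act on the circadian clock and on light signalling.

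Values are log2 of the deposited probe set intensity. The 6 arrays had nearly equal distributions, with median intensities of 28.8 to 29.2 over 28501 probe sets, and their small number limits the precision. The labels name biological replicates but not separate batches of plants, so p-values measure the spread between these samples. The ARA6 transcript (AT3G54840) was lower in all 3 mutant arrays, at intensities of 118.7 to 142 against 254.9 to 337 in WT, a separation that 7.85% of all probe sets showed in this direction. Its level in the mutant was 0.425 of that in WT, so a signal remained, and the difference did not pass over all probe sets (limma, adjusted p = 0.14). Replicate 3 of WT and replicate 1 of ara6-1 lay farther from their groups than the rest. Over probe sets above the median signal, the SD of an array's deviations from its group was 0.169 and 0.165 log2 units for these, against 0.12 to 0.126 for the other 4. Of the green tissue markers, 3 of 8 were measured, with summed intensities of 6375 to 7089 in WT and 6790 to 7118 in ara6-1. LHCB4.1 (AT5G01530) was higher in every mutant array, at 896.7 to 1057.2 against 846.1 to 870.4 in WT. Its log2 difference was 0.17 (limma, adjusted p = 0.634), and 7.81% of all probe sets showed a separation in this direction. The groups overlapped for SBPASE and RCA. Of the root markers, 3 of 8 were measured, with summed intensities of 4781 to 4907 in WT and 5068 to 5315 in ara6-1. Nearly all of that sum was PYK10 (AT3G09260), at 4731.3 to 4859.6 in WT and 5009.2 to 5262 in ara6-1, while the groups overlapped for EXPA7 and for AT5G48070. PYK10 had a log2 difference of 0.11 (limma, adjusted p = 0.727), and 7.81% of all probe sets likewise had every mutant array above every WT array. Of these 6 markers, 0 passed the test (limma, adjusted p of 0.634 or higher) and 0 had an unadjusted p under 0.05. Seed and floral markers had 0 members measured under a gene name. Whether the share of green or root tissue bears on the COR values was not tested, and in whole plants fewer cells of a type and less RNA per cell cannot be told apart.

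COR15A, the chloroplast protein best known among the COR genes, gave a strong signal in every plant sample. The WT arrays, in replicate order from 1 to 3, read intensities of 845.8, 823.4 and 973.3, and the ara6-1 arrays read 740.4, 1333.9 and 1143.8. Of the mutant arrays, replicates 2 and 3 lay above every WT array and replicate 1 lay below every WT array, so the groups overlapped. On the log2 scale the means were 9.78 ± 0.13 (SD, n = 3) for WT and 10.02 ± 0.44 (SD, n = 3) for the mutant. The log2 difference was 0.25 with an SE of 0.21 (1.19-fold), and it did not pass the test (limma, Benjamini-Hochberg adjusted p = 0.738 over all probe sets). The 95% interval of the difference ran from 0.837-fold to 1.68-fold. An exact permutation test of the 6 values, two-sided, gave p = 0.4, where 3 arrays against 3 can reach 0.1 at the lowest.

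COR15B, the neighbouring paralogue, had a dim probe set but the same order among the mutant arrays. In the same order, its intensities were 17, 17.3 and 14.7 in the WT arrays, against 14.2, 24.9 and 20.4 in the mutant. Again mutant replicates 2 and 3 exceeded all WT arrays and mutant replicate 1 was the lowest of the 6. The log2 means were 4.03 ± 0.13 (SD, n = 3) for WT and 4.27 ± 0.41 (SD, n = 3) for the mutant. The log2 difference was 0.25 ± 0.20 (SE; limma, adjusted p = 0.724), and its 95% interval ran from 0.853-fold to 1.65-fold. The exact two-sided permutation p was 0.5. Its mean signal ranked at percentile 41.2 of the arrays and no detection measure was used, so its fold may be understated. The paralogues are similar in sequence and the probe sequences were not used here, so how far each probe set also reads the other transcript was not tested.

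COR28, the clock and light regulator, was nearly level across the arrays. Intensities of 11.8, 11.4 and 13.1 were read in the WT arrays, and of 12.1, 13.8 and 11.9 in the mutant arrays. Mutant replicate 2 was the highest of the 6, while mutant replicates 1 and 3 lay within the WT range. The log2 means were 3.59 ± 0.10 (SD, n = 3) for WT and 3.65 ± 0.12 (SD, n = 3) for the mutant. The log2 difference was 0.06 ± 0.11 (SE; limma, adjusted p = 0.883), and the exact two-sided permutation p was 0.5. The 95% interval ran from 0.872-fold to 1.24-fold, narrower than for either COR15 gene, but the probe set was dim (percentile 34.6 by mean signal), and differences of a weak probe set can understate those of its transcript. For this gene the sign of the difference rested on ara6-1 replicate 2, without which it was -0.00948.

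Of the 3 COR genes, 0 passed an adjusted p of 0.05 in limma and 0 had an unadjusted p under 0.05, against 0.0105% of all 28501 probe sets that passed (3 probe sets) and 9.01% that had an unadjusted p under 0.05. None had groups that did not overlap. Among all probe sets, 7.81% had every ara6-1 array above every WT array and 7.85% had every one below.

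**Figure D1:**
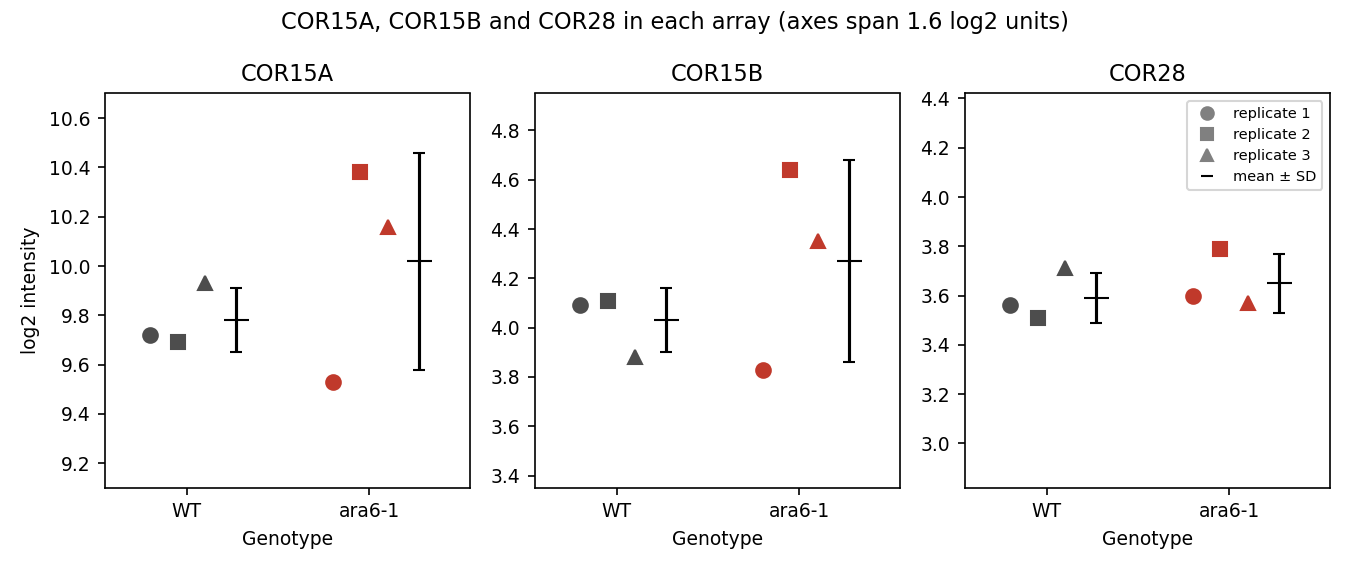
Log2 intensity (vertical axis) of COR15A, COR15B and COR28 in each of the 3 WT and 3 ara6-1 arrays, with symbols for the replicate number and bars for the group mean ± SD; each panel has its own level but the same span. For both COR15 genes ara6-1 replicate 1 is the lowest point and replicate 2 the highest, so the mutant SD (0.44 and 0.41) exceeds the WT SD (0.13 for both), while COR28 stays between 3.51 and 3.79.

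The COR15 genes varied more among the mutant arrays than COR28 did. COR15A differed 1.8-fold between the highest and the lowest mutant array and 1.18-fold between the highest and the lowest WT array. For COR15B the same ratios were 1.75-fold and 1.18-fold, and for COR28 they were 1.16-fold and 1.15-fold. The SD of COR15A among the mutant arrays exceeded that of 98.4% of the 550 probe sets within 0.5 log2 units of its mean signal. For COR15B the share was 92.3% of 3575 probe sets, and for COR28 it was 24.2% of 3592. Among WT arrays the corresponding shares were 80.7%, 25.4% and 16.2%. These shares are descriptions, and the difference in spread between the genotypes was not tested.

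The differences of the COR15 genes therefore depended on which mutant array was counted. With ara6-1 replicate 1 left out, one of the arrays far from its group, the log2 difference of COR15A was 0.49 with a 95% interval of 0.17 to 0.81 (limma, unadjusted p = 0.00948, adjusted p = 0.399). That of COR15B was then 0.47 with an interval of 0.13 to 0.81 (limma, unadjusted p = 0.0153, adjusted p = 0.412). Without ara6-1 replicate 2, the highest array for both genes, the log2 differences were 0.07 for COR15A and 0.06 for COR15B. Their intervals lay on both sides of 0 (-0.43 to 0.56 and -0.38 to 0.51). With WT replicate 3 left out together with ara6-1 replicate 1, the log2 difference was 0.57 for COR15A and 0.39 for COR15B (limma, adjusted p = 0.349 and 0.377). Over the 16 alternative fits the adjusted p was never below 0.349 for COR15A, 0.377 for COR15B or 0.624 for COR28.

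**Figure D2:**
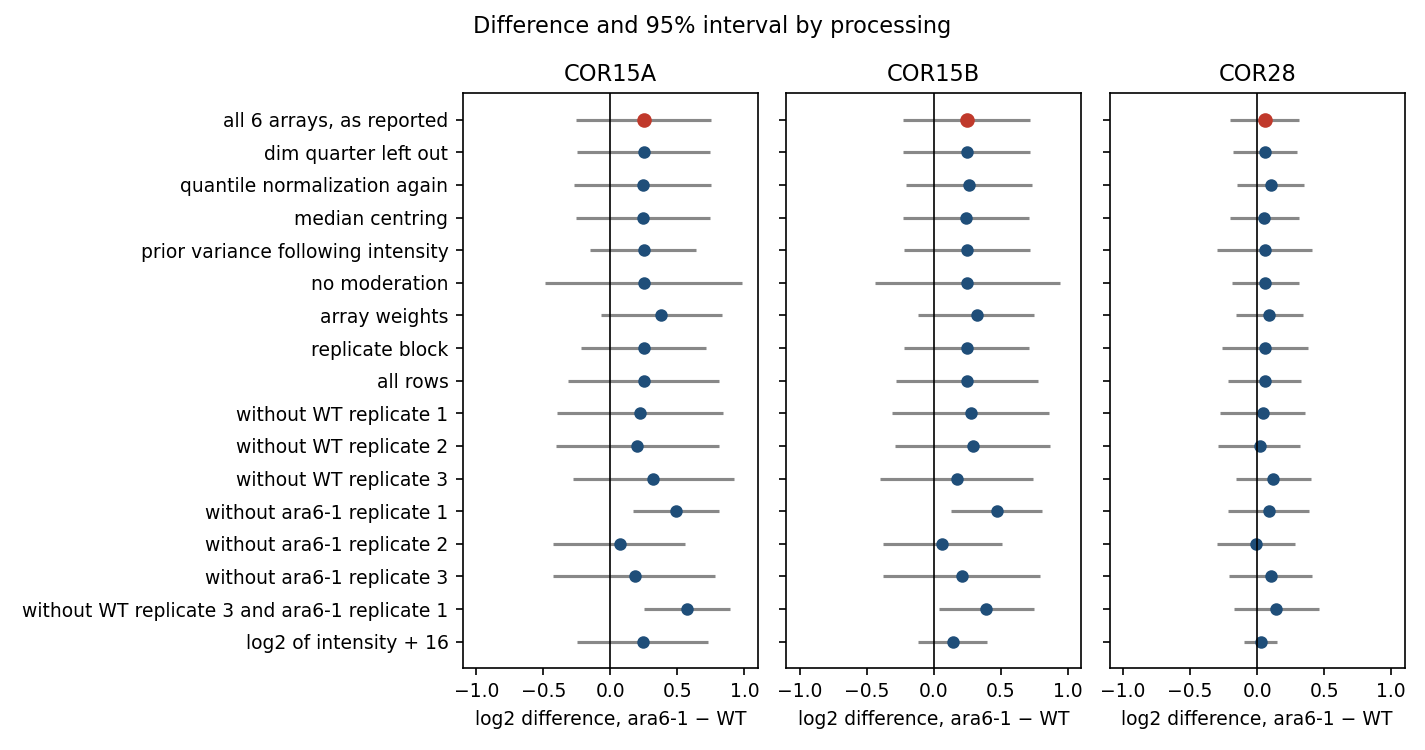
Log2 difference (ara6-1 minus WT, horizontal axis) with its 95% interval for COR15A, COR15B and COR28, with all 6 arrays (top, red) and in 16 alternative fits (blue), including each array left out in turn. The COR15 intervals lie above 0 in the 2 fits without ara6-1 replicate 1, the lowest array of both genes. They are widest without moderation, and the COR28 interval spans 0 in all fits.

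COR15A and COR15B moved together over the arrays. Their log2 intensities had a Pearson r of 0.858 and a Spearman rho of 0.771 over the 6 arrays, and their deviations from the group means had r = 0.826. Over the 4 arrays left without ara6-1 replicates 2 and 3, the ones farthest from the median of COR15A, r was 0.0464. Leaving out the most extreme arrays narrows the range and tends to lower r, and 4 arrays give an imprecise r. WT replicate 3 was the highest WT array for COR15A and the lowest for COR15B. COR28 had an r of 0.676 with COR15A and 0.393 with COR15B. The genes share the same RNA samples and arrays, so these correlations are descriptions and carry no p.

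Another cold-induced gene had the same order of mutant arrays around WT. KIN2 (AT5G15970), known for strong induction by cold and abscisic acid, had intensities of 843, 811 and 654.5 in the WT arrays. In the mutant arrays it had 650.9, 1179.4 and 888. As for both COR15 genes, mutant replicates 2 and 3 were the highest and the second highest of the 6 arrays and mutant replicate 1 the lowest. The lowest place was a near tie with WT replicate 3 for KIN2 (650.9 against 654.5) and for COR15B (14.2 against 14.7). Its log2 difference was 0.20 ± 0.22 (SE; limma, adjusted p = 0.793). KIN2 correlated with COR15A at r = 0.771 over the 6 arrays, above 94.9% of all probe sets, and COR15B above 97.9%. The other cold-induced genes correlated less with COR15A, at 0.195 for KIN1, 0.179 for COR47, 0.153 for LTI30 and 0.0128 for COR27. Higher values than that of KIN2 came from the dim dehydrin gene AT4G39130 (0.811) and the dim LEA_4 gene AT3G53040 (0.806). Other genes of these families went the other way. The measured dehydrins ran from -0.716 for AT2G21490 to 0.811, with -0.681 for the brighter AT1G54410. The measured LEA_4 genes ran from -0.639 for AT2G18340 to 0.806. Over all 28501 probe sets, 349 (1.22%) had this exact order of the mutant arrays around WT. Among the 14250 above the median level, where COR15A and KIN2 lie, 267 (1.87%) had it. The order was picked out after the values of these genes were seen.

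**Figure D3:**
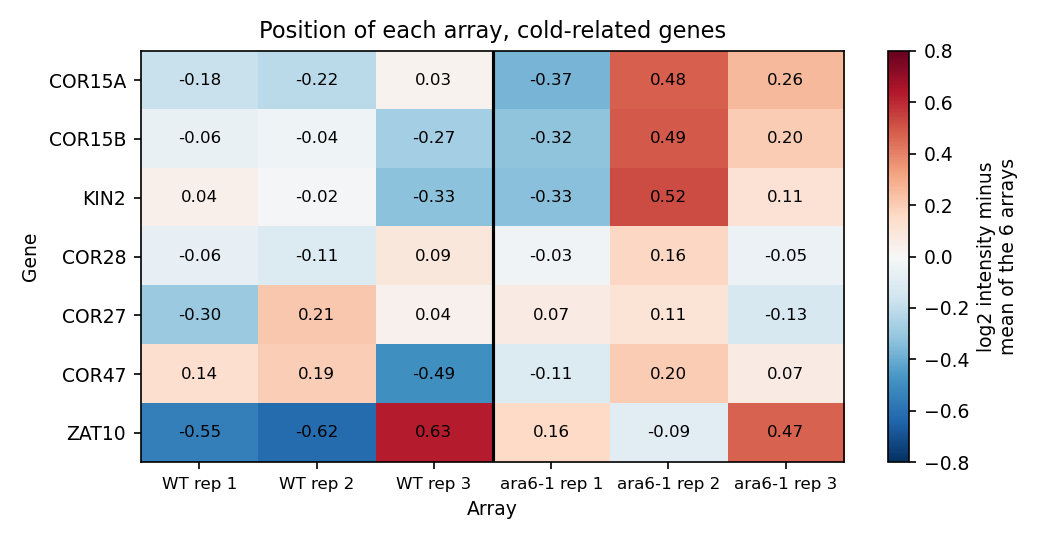
Log2 intensity of each gene (rows) in each array (columns) minus the mean of that gene over the 6 arrays, with red above and blue below the mean and a line between WT and ara6-1. COR15A, COR15B and KIN2 share low values in ara6-1 replicate 1 (-0.37, -0.32 and -0.33) and high values in replicate 2. WT replicate 3 is also low for COR15B (-0.27) and KIN2 (-0.33), but not for COR15A (0.025). COR27, COR47 and ZAT10 vary mostly among the WT arrays.

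The other measured regulators and targets of the cold response, ZAT10, KIN1, COR47, LTI30 and COR27, did not have this order around WT. Among the mutant arrays alone, KIN1 (4.5, 6.6 and 5.1) and COR47 (94.1, 116.7 and 106.5) also read highest in replicate 2 and lowest in replicate 1. Over 13 measured cold genes, the COR genes and dehydrins included, ara6-1 replicate 1 was the lowest mutant array in 7 (36.7% of all probe sets). Replicate 2 was the highest mutant array in 8 (32.2% of all probe sets). Of the 18 CBF regulators listed, 1 was measured under a gene name, so CBF1, CBF2, CBF3 and ICE1 are not described. The measured one was ZAT10 (AT1G27730, listed as STZ), a zinc finger repressor induced by cold and other stresses. Its intensities were 43.7, 41.7 and 98.7 in WT and 71.3, 59.9 and 88.7 in ara6-1, replicates 1 to 3. WT replicate 3 thus lay above all other arrays for ZAT10, and the log2 difference was 0.36 ± 0.33 (SE; limma, adjusted p = 0.755). It was 0.76 without WT replicate 3, 0.17 without WT replicate 1, 0.14 without WT replicate 2 and 0.21 without ara6-1 replicate 3.

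Of 20 further cold-induced genes, 5 were measured, and 0 passed the test in limma or had an unadjusted p under 0.05. COR27 (AT5G42900), the relative of COR28, had intensities of 50.6, 72.3 and 63.8 in WT and 65.2, 67.3 and 57 in ara6-1. All 3 mutant values lay within the WT range, and the log2 difference was 0.03 ± 0.15 (SE; limma, adjusted p = 0.957). COR47 (AT1G20440), a dehydrin that protects membranes and proteins from water loss, had a log2 difference of 0.11 (limma, adjusted p = 0.880). For COR47 the lowest array was WT replicate 3, at 72.4 against 94.1 to 116.7 in the other 5. KIN1 (AT5G15960), the tandem neighbour and close paralogue of KIN2, and the dehydrin LTI30 (AT3G50970) were both near the low end of the arrays, with log2 differences of -0.22 and -0.04. How far the KIN1 and KIN2 probe sets read each other was not tested. The median difference over the 5 genes was 0.03, while all genes named alone had a median of -0.01. The sign and size of that median depended on single arrays, with -0.11 without WT replicate 3, -0.01 without ara6-1 replicate 2 and 0.20 without WT replicate 1.

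COR15A and COR15B belong to the LEA_4 family, many of whose members are known from seeds. Of 15 other LEA_4 genes, 12 were measured, and all 12 lay below the median signal of the arrays. None passed the test in limma, 0 had an unadjusted p under 0.05 (9.01% of all probe sets did), and their log2 differences ran from -0.22 to 0.14 with a median of -0.05. The smallest p belonged to AT4G36600 (log2 difference -0.22, limma adjusted p = 0.604), followed by AT5G44310 (-0.18, 0.763) and AT4G21020 (-0.13, 0.764). AT3G53040 had the array order of COR15A, COR15B and KIN2, with intensities of 5.2, 5.7 and 5.5 in WT and 3.4, 6.8 and 6.1 in ara6-1 and a log2 difference of -0.07 (limma, adjusted p = 0.943); it is named because its values were seen to do so. Since the signals of the 12 genes were low, small differences of these genes would not be seen.

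Of 10 dehydrins, 6 were measured, COR47 and LTI30 among them, with a median log2 difference of -0.03 and a range of -0.27 to 0.15. None passed in limma, and 0 had an unadjusted p under 0.05. AT2G21490 had -0.27 (limma, adjusted p = 0.671), AT1G54410 had -0.16 (0.714) and AT4G38410 had 0.15 (0.838). The 20 listed genes of drought and abscisic acid response had 0 members measured under a gene name.

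Clock and light genes linked to COR28 and COR27 were sparsely measured. Of 23 clock genes, 3 were measured. GIGANTEA (GI, AT1G22770), which links the clock to flowering, had intensities of 133.2, 118.8 and 112.5 in WT and 133, 167.8 and 142.3 in ara6-1. The groups overlapped by 1 pair of arrays, and the log2 difference was 0.28 ± 0.12 (SE; limma, adjusted p = 0.568). RVE6 (AT5G52660), a MYB-like clock activator, had nearly equal means, 5.84 in both groups. COR27 is the other clock gene measured. Of 14 light signalling genes, HYH (AT3G17609), a bZIP factor related to HY5, was the 1 measured, with a log2 difference of -0.19 (limma, adjusted p = 0.817).

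Across these lists, 25 genes were measured of 115 entries, each gene counted once. Of the 25, 12 had positive and 13 had negative differences, with a median log2 difference of -0.02. In none of them did the groups not overlap, against the 7.81% and 7.85% given above. None passed in limma with all 6 arrays (lowest adjusted p 0.568) or in any of the 16 alternative fits (lowest adjusted p 0.352), where the fit with the dimmest probe sets left out tested only 14 of them. The number with an unadjusted p under 0.05 was 0 with all arrays, against 9.01% of all probe sets. It was at most 4, in the fit without WT replicate 3 and ara6-1 replicate 1, where 12.7% of all probe sets had such a p.

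**Figure D4:**
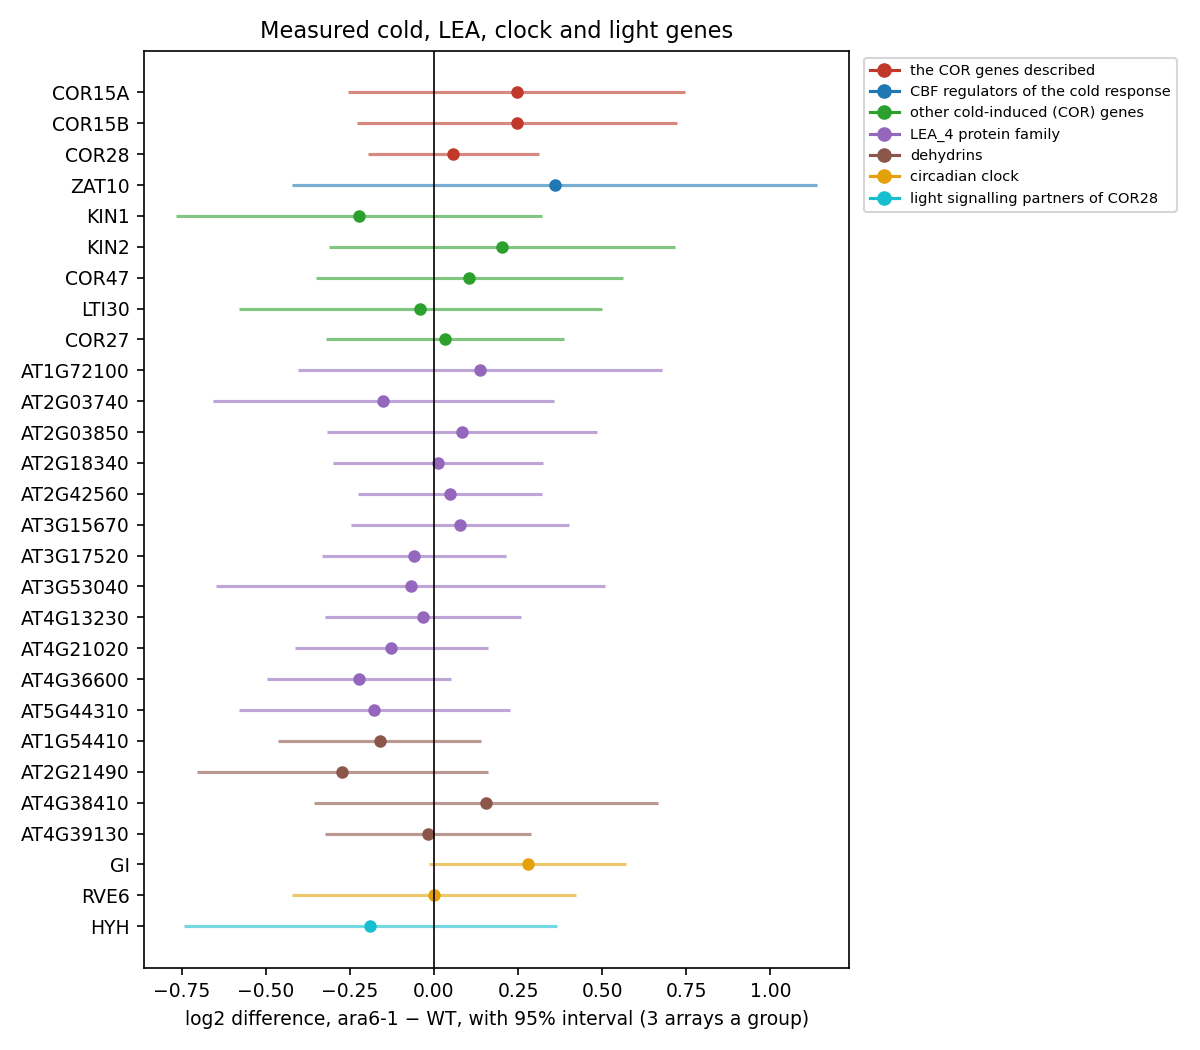
Log2 difference (ara6-1 minus WT, horizontal axis) with its 95% interval for COR15A, COR15B, COR28 and the 25 measured genes of the cold, LEA, dehydrin, clock and light lists (rows, coloured by the first list that holds them). Every interval spans 0, and the point estimates lie between -0.27 for AT2G21490 and 0.36 for ZAT10.

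The chromosomal neighbours of the COR genes were also read. Of the 5 annotated genes on each side of the COR15B and COR15A pair, 6 were measured, with log2 differences between -0.28 and 0.20 (limma, adjusted p of 0.57 or higher). The gene directly before the pair, AT2G42520, had 0.20, and the gene directly after it, AT2G42550, had -0.28 with groups that did not overlap. The probe set of AT2G42550 was dim, at 7.1 to 8.7 in WT and 5.7 to 7 in ara6-1. Of all probe sets, 7.85% likewise had every mutant array below every WT array. A dim LEA_4 gene 2 places after the pair, AT2G42560, had 0.05 (limma, adjusted p = 0.914). Around COR28, 4 of 10 neighbours were measured, with log2 differences between -0.28 and 0.06 (limma, adjusted p of 0.695 or higher). The gene order is that of the TAIR10.1 annotation.

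The genes whose pattern over the 6 arrays was most like that of COR15A were sought among 1563 named genes above the median signal with an SD over the arrays of at least 0.2 on the log2 scale. AT2G22080 had r = 0.984, AT5G58340 had 0.976, AT3G48070 had 0.972, PHYLLO (AT1G68890), a gene of phylloquinone synthesis, had 0.970, and AT2G42270 had 0.960. In all, 18 of these genes had r of 0.9 or more. None of the 5 passed between the genotypes, with log2 differences of 0.13 to 0.26 (limma, adjusted p of 0.684 or higher). For COR28, among 1564 genes, 2 reached r of 0.9. They were AT5G54300 with 0.954 and AT1G62660, a vacuolar invertase gene, with 0.903, followed by AT5G02670 with 0.884, AT3G61320 with 0.864 and AT3G26240 with 0.854. Over 6 arrays high values of r are common. The 95th percentile of r with COR15A over all 28501 probe sets was 0.773.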

How the data were processed

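Whole-plant RNA was hybridized to Affymetrix whole-transcript arrays, each sample on 1 array, as the labels' protocols say. Linear intensity values were deposited. They came from Affymetrix Expression Console, version 1.3, according to the submitters' processing notes. Summarization, genome build and annotation are not given in the sources used here. Near-equal quantiles were read as normalization by the authors, so the values were only turned into log2 (floor 1, which touched no value). Of 38408 rows, the 28501 written to 1 decimal were tested. The other 9907 carried more decimals and entered an alternative. Of the tested probe sets, 16704 named 1 gene in the platform's table, 744 named several and 11053 were not listed; 16556 matched a locus of TAIR10.1 in RefSeq, for 16405 genes, each read by its brightest probe set.

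Genotypes were compared by limma 3.58.1 (R 4.3.3; lmFit and eBayes with 4 residual and 3.31 prior degrees of freedom), two-sided, calling an adjusted p (Benjamini-Hochberg, over the 28501) under 0.05. Its SEs and 95% intervals are moderated. The genes named were all members, the list genes with the smallest p, selected cold genes, 5 neighbours on each side, and the 5 most alike genes. The members, gene lists and alternatives were chosen with earlier results of these data known.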

Additional observations from a re-analysis of the deposited data

How the results depend on the processing

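Over 16 alternative fits each, COR15A and COR15B kept a positive log2 difference that did not pass in limma, with values of 0.07 to 0.57 and 0.06 to 0.47. Weighting the arrays gave 0.38 for COR15A (limma, adjusted p = 0.471), and the cause was not tested. Adding 16 to the intensity gave 0.14 for COR15B, with intensities of 14.2 to 24.9, and 0.24 for the brighter COR15A. A constant added before the log shrinks the log2 difference of a dim probe set by arithmetic. Leaving out single arrays gave 0.07 to 0.49 for COR15A, 0.06 to 0.47 for COR15B and -0.00948 to 0.12 for COR28. COR28 turned to -0.00948 without ara6-1 replicate 2, its highest array. The alternative with several probe sets per gene gave no value, since each gene had 1. The 3 probe sets that passed in limma became 16 with a prior variance following intensity, 0 without moderation (2556 with an unadjusted p under 0.05) and 1 without WT replicate 3 and ara6-1 replicate 1. Single arrays left out gave 2 to 4 such probe sets. The LEA_4 median moved from -0.05 to 0.02 after renewed quantile normalization, and the dehydrin median from -0.03 to 0.04. Single arrays left out moved the median of the cold-induced genes between -0.11 and 0.20, of the dehydrins between -0.13 and 0.08, of the clock genes between -0.11 and 0.15, and of the single light gene between -0.36 and 0.02. The drought and abscisic acid list had no measured member and no value.

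Deviations of same-numbered arrays had no common sign of correlation (r of -0.196, 0.174 and -0.15 over the brighter probe sets), and replicate numbers were not taken as pairs. Deviations from means of 3 arrays constrain each other, so these r values cannot exclude pairing by replicate number. The highest r between a WT and an ara6-1 array was 0.289, for WT replicate 3 and ara6-1 replicate 1. With the replicate block the log2 differences were 0.25 for COR15A, 0.25 for COR15B and 0.06 for COR28 (limma, adjusted p = 0.736, 0.735 and 0.91), and 2 probe sets passed in place of 3. Signals near the low end of the arrays and 3 arrays a group limit what these values resolve.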
